A study of Homo sapiens with 43 samples.

Results

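Induction of the U2AF1 mutant S34F was followed in HEL cells, a human erythroleukemia line with erythroid and megakaryocytic features, by counting RNA-seq reads per gene. The comparison took the 3 RNA-seq libraries of the S34F line, out of 43 samples in the series: 2 libraries from induced cells (replicates 1 and 2) and 1 library from uninduced cells (replicate 1). All 3 came from cells stably transfected with the S34F transgene, grown in medium with tetracycline-free serum, and the induced cells had received doxycycline at 1 µg/ml for 48 hours. The same induction was measured in a line carrying wild-type (WT) U2AF1, with 2 induced and 2 uninduced libraries, and in a line carrying the Q157R mutant, with 2 induced and 1 uninduced. The labels do not say whether a line was 1 clone, nor which promoter drove the transgene beyond its response to doxycycline. They call the replicates biological without naming separate cultures, so p-values measure the spread between these libraries, which may be technical in part. Every induced library also received doxycycline, so within the S34F line the drug and the mutant protein cannot be told apart, and only the other lines show a change under the drug with another transgene.

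U2AF1 and U2AF2 form the heterodimer that recognises the 3' splice site, U2AF1 contacting the terminal AG dinucleotide and U2AF2 the polypyrimidine tract upstream of it. S34F lies in a zinc finger of U2AF1, recurs in myelodysplastic syndromes and acute myeloid leukemia, and is known to change which 3' splice sites are chosen. Counts per gene do not show which exons were joined, so the values below are gene levels and not splicing.

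The line matched its label by its markers. In the 3 S34F libraries the erythroid regulator GATA1 stood at 198 CPM (counts scaled to a common library size) before induction and at 146 and 154 CPM in induced replicates 1 and 2. The megakaryocyte integrin gene ITGA2B stood at 1380, 736 and 1120 CPM in the same order. Of the 10 erythroid and megakaryocyte markers, 9 had at least 768 counts in every one of the 10 RNA-seq libraries, and the platelet chemokine PF4 had 0 to 19. Among markers of other cells, the B cell gene MS4A1 had no count in any library (a count of 0 allows up to 3 counts), the granulocyte genes MPO and ELANE had at most 5, and the epithelial gene EPCAM at most 1. LYZ, the lysozyme gene of myeloid cells, was the exception, at 20.8 CPM before and at 50.1 and 51.0 CPM after induction.

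Gene counts were 36871904 in the uninduced and 22392303 and 26939189 in the induced S34F libraries. The share of reads in no annotated feature was 20.3% in the uninduced library and 33.7% and 33.5% in the induced ones. It was also higher after induction in the other lines. WT libraries stood at 19.5% and 19.0% before and 22.7% and 22.7% after, and Q157R libraries at 20.6% before and 23.2% and 27.0% after. With this share moved the kinds of gene that changed. In the S34F line the median log2 fold change on induction was -0.13 over 13602 protein-coding genes and 0.64 over 1555 lincRNA entries. It was 0.48 over 1656 antisense entries and 0.80 over 466 sense intronic entries. The lincRNA median was 0.23 in WT and 0.33 in Q157R cells. The part of this shift in each gene list below was not tested. Scaling on protein-coding genes alone moved their log2 fold changes by 0.16.

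**Figure D1:**
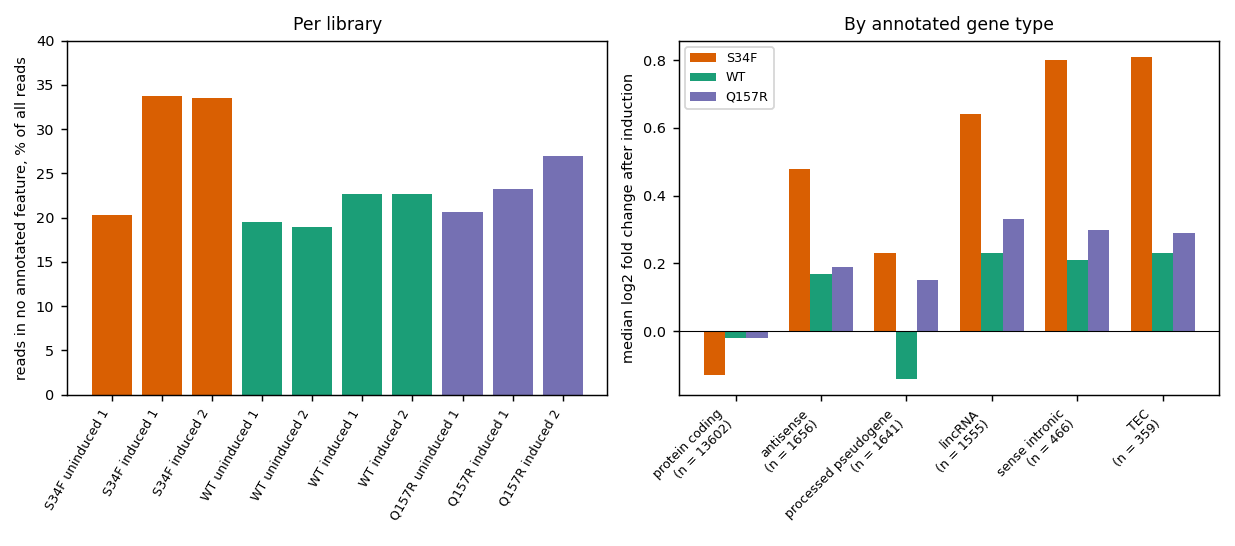
Left, reads in no annotated feature as a percentage of all reads in each of the 10 RNA-seq libraries (bars, coloured by line); right, the median log2 fold change on induction by annotated gene type in each line, with the number of genes tested. The induced S34F libraries stand at 33.7% and 33.5%, above the 8 others, and noncoding types have the highest medians in the S34F line.

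The induced gene was checked first. U2AF1 (chromosome 21, 43092956 to 43107587, GRCh38) stood at 21.2 CPM in uninduced and at 18 and 19.4 CPM in induced S34F cells. Its log2 fold change was -0.18 ± 0.35 (SE; edgeR adjusted p = 0.782), so the counts of this entry did not show the transgene. GRCh38 carries a near-identical copy of U2AF1, and reads that match both may not be counted, so the level is uncertain. The part of that copy was not tested. U2AF2, its partner, was at 361 CPM before and at 218 and 161 CPM after induction, below the uninduced library in both. Its log2 fold change was -0.93 ± 0.29 (edgeR adjusted p = 0.108). A fit that also blocked on replicate number gave -0.76 (edgeR adjusted p = 0.00974; 0.00454 to 0.339 over the alternatives).

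In the S34F line 150 of 21300 genes rose and 268 fell on induction, 0.704% and 1.26% of the genes tested and 1.96% in all. A gene was called at a Benjamini-Hochberg adjusted p under 0.05 in edgeR. The fit took in all 10 RNA-seq libraries, so that the single uninduced library borrowed its spread from the groups with 2. This fit had no term for replicate number, and in the S34F line induced replicate 2 had no uninduced partner. A difference between replicate numbers can therefore enter these fold changes and the list medians below. The smallest adjusted p was 0.034, and 5372 genes had an unadjusted p under 0.05. Both induced libraries lay on the called side of the uninduced one for 418 of the 418 genes, which calling genes on these same libraries favours. The median log2 fold change was 2.54 for the genes that rose and -1.44 for those that fell. All 268 genes that fell were protein-coding, as were 85 of the 150 that rose, so that 1.97% of protein-coding genes fell. Blocking on replicate number brought the calls to 4099, with 1754 higher and 2345 lower (8.23% and 11% of those tested), and the 418 were among them. Of protein-coding genes 7.26% were higher and 16.4% lower with the block, the shares against which the block counts of the protein-coding lists below stand. Noncoding entries were also called lower with the block: 34 antisense entries (176 higher) and 20 lincRNA entries (195 higher). With protein-coding genes only, 59 were called higher and 90 lower. DESeq2 called 1851, of which 409 were shared. No gene was called by edgeR after leaving out induced S34F replicate 1, induced S34F replicate 2, uninduced WT replicate 1 or uninduced WT replicate 2, with 3272, 3464, 5119 and 5077 genes at an unadjusted p under 0.05.

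The replicate 1 pair are the only uninduced and induced S34F libraries that share a number. For 405 of the 418 genes the induced replicate 1 library differed from the uninduced one by at least 2-fold in the called direction. The genes were called with these libraries in the fit, so the pair's direction was fixed by the calls and is a description of size only.

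**Figure D2:**
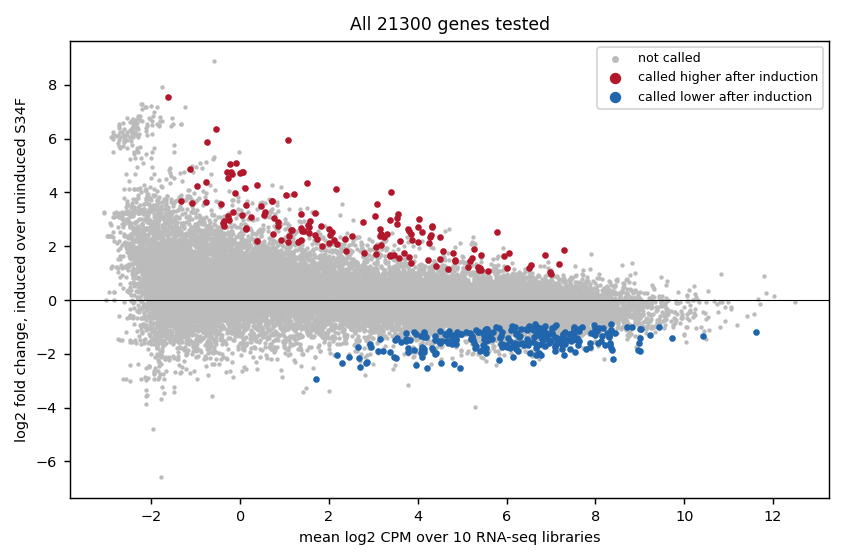
Log2 fold change of induced over uninduced S34F cells against the mean log2 CPM over the 10 RNA-seq libraries, 1 point per gene tested. The genes called lower lie mostly at mean log2 CPM of 3 or more and those called higher reach to lower levels, with a median of 2.54 against -1.44.

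Among genes with a mean log2 CPM of at least 3 over the 10 libraries, the largest rise was that of AVIL (ENSG00000135407.10; chromosome 12, 57797376 to 57818704), which encodes advillin, an actin-binding protein of the gelsolin family. It stood at 2.46 CPM before and at 47.8 and 32.3 CPM after induction, 16.3-fold higher on average. The 7 WT and Q157R libraries lay between 2.44 and 4.31 CPM, below both induced S34F libraries. Its log2 fold change was 4.02 ± 0.45 (edgeR adjusted p = 0.034, and 1.12e-16 to 0.259 over the alternatives). AVIL overlaps the coding gene TSFM on the other strand, and whether the counting used strand was not stated.

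TECTA (ENSG00000109927.9; chromosome 11, 121101173 to 121191493), known for alpha-tectorin of the inner ear's tectorial membrane, went from 2.75 CPM to 40.4 and 24.4 CPM. This was an 11.8-fold rise, with log2 fold change 3.56 ± 0.55 (edgeR adjusted p = 0.0354). The annotation also places the readthrough entry TBCEL-TECTA over it on the same strand. PTGDR2, a prostaglandin D2 receptor, went from 3.21 to 26.8 and 32.4 CPM and overlaps CCDC86. The log2 fold change of PTGDR2 was 1.02 in WT and 1.33 in Q157R cells. ALPK3, a kinase gene known from striated muscle, went from 6.07 to 59.9 and 39.0 CPM, with log2 fold change 3.03 ± 0.46. TECTA and ALPK3 have their best known roles in other tissues.

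MSH4, a meiotic recombination gene, stood at 3.92 CPM before and at 31.7 and 30.2 CPM after induction. The intestinal glucosidase genes MGAM and MGAM2, neighbouring paralogs on chromosome 7 whose reads could be split between them (MGAM also overlaps CLEC5A and OR9A4), rose from 6.58 to 39.7 and 46.1 CPM and from 2.89 to 21 and 27.2 CPM. C20orf204 rose from 4.72 to 35.0 and 31.4 CPM and the long noncoding RNA LINC01359 from 3.29 to 24.0 and 17.4 CPM. ITGAM, which encodes the myeloid integrin chain CD11b, rose from 5.38 to 29.7 and 40.7 CPM. In all of these both induced libraries were above the uninduced one.

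The largest falls included MYEOV (chromosome 11, 69294138 to 69367726), which went from 32.1 CPM to 4.26 and 6.74 CPM, with log2 fold change -2.54 ± 0.35 (edgeR adjusted p = 0.034). CCND1, encoding cyclin D1 of the passage from G1 to S phase, lies on the same chromosome at 69641087 to 69654474 and fell from 20.9 to 2.96 and 4.86 CPM. MARCKSL1, a cytoskeleton-linked substrate of protein kinase C, fell from 51.2 to 6.70 and 11 CPM. CNN3, an actin-binding calponin, fell from 44.9 to 7.69 and 9.63 CPM.

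UBASH3B (ENSG00000154127.9; chromosome 11, 122655675 to 122814473) encodes STS-1, a phosphatase that restrains tyrosine kinase signalling. It stood at 421 CPM before and at 74.8 and 110 CPM after induction, 4.56-fold lower. The 7 libraries of the other lines lay between 335 and 465 CPM, above both induced S34F libraries. NCAPG2, a subunit of condensin II, fell from 164 to 33.3 and 31.0 CPM. It also went from 165 to 59.1 and 48.2 CPM in Q157R cells, and from 162 and 134 to 103 and 69.9 CPM in WT cells. The kinase gene DYRK4 fell from 104 to 18.1 and 26.3 CPM, and IRAG1, a substrate of cGMP-dependent kinase, from 20.7 to 4.26 and 5.16 CPM. The histone genes H2BC10 and H4C9, described next, completed the 10 largest falls. DYRK4 and IRAG1 were not called with protein-coding genes only (edgeR adjusted p = 0.063 and 0.0653).

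**Figure D3:**
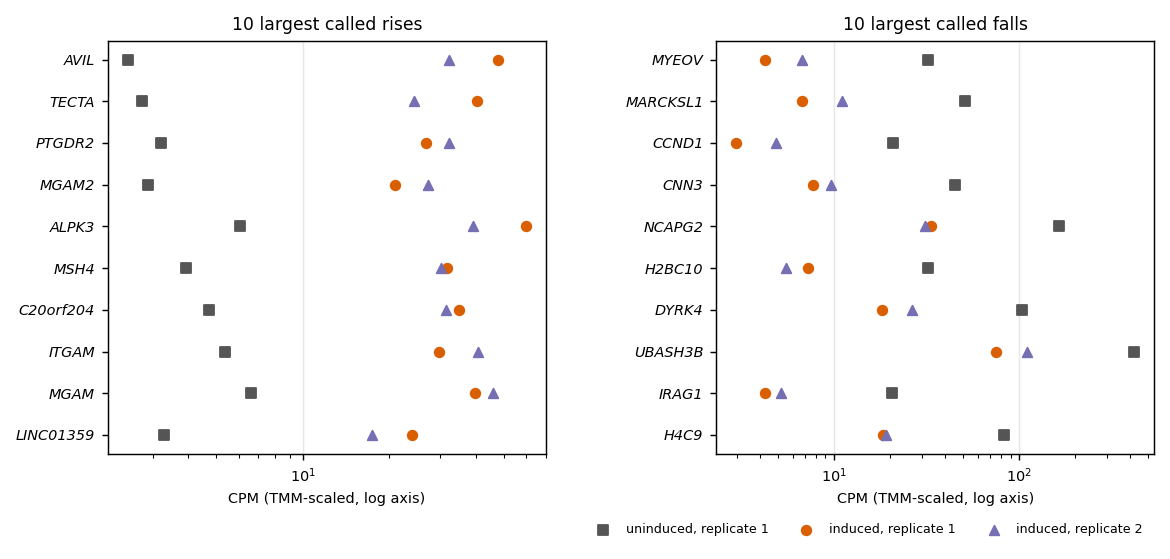
CPM in each S34F library (log axis) for the 10 largest called rises and the 10 largest called falls among genes with a mean log2 CPM of at least 3. Squares are the uninduced library, circles and triangles induced replicates 1 and 2, and both induced libraries lie on the same side of the uninduced one, as the choice of these genes required.

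Replication-dependent histone genes had the lowest median of the 32 gene lists examined. These genes are made in S phase to package new DNA, and their mRNAs end in a stem-loop in place of a poly(A) tail, so they are seen in libraries made by rRNA depletion. Of 42 tested, 21 fell and 0 rose, against 1.97% of protein-coding genes that fell, with a median log2 fold change of -1.49. H1-5, a linker histone gene, stood at 696 CPM before and at 183 and 202 CPM after induction. H2BC10 went from 32.2 to 7.21 and 5.49 CPM, H4C9 from 82.6 to 18.5 and 19.2 CPM, and H2BC9 from 146 to 52.1 and 42.0 CPM. Summed over the 42 genes the level was 7000 CPM before and 2570 CPM in each induced library. With the block 38 were called lower, and with protein-coding genes only 12, at a median of -1.33. Histone genes are near-identical in places, so reads can be split or lost between them.

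DNA replication and nucleotide synthesis genes were negative in 41 of 41, with a median of -1.37. Of these 8 fell and 0 rose, and 31 were called lower with the block and 5 with protein-coding genes only. MCM2 and MCM6, subunits of the replicative helicase (MCM6 chosen after its values were seen), went from 393 to 110 and 136 CPM and from 218 to 48.8 and 74.4 CPM. TK1, of thymidine salvage, went from 106 to 32.4 and 35.1 CPM, with log2 fold change -1.65 ± 0.18 (edgeR adjusted p = 0.034). TYMS, thymidylate synthase, went from 220 to 68.8 and 72.8 CPM, and POLD1, of DNA polymerase delta, from 208 to 70.7 and 83.6 CPM. MCM2 and TYMS overlap TPRA1 and ENOSF1 on the other strand. In bulk RNA, fewer cells in S phase and less of each RNA per cell cannot be told apart.

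Mitotic genes were negative in 36 of 36 with a smaller median, -0.80. Of these 6 fell, 0 rose and 23 were called lower with the block and 2 with protein-coding genes only. TOP2A, the topoisomerase of dividing cells, went from 644 to 205 and 219 CPM, a log2 fold change of -1.60 ± 0.19 (edgeR adjusted p = 0.034). CCNA2, cyclin A2, went from 169 to 64.0 and 55.6 CPM, and UBE2C, a ubiquitin-conjugating enzyme of mitotic exit, from 56.3 to 21.6 and 24.1 CPM. CCNA2 overlaps EXOSC9 on the other strand. KIF23, a kinesin of cytokinesis, went from 112 to 53.2 and 53 CPM. UBE2C and KIF23 were not called with protein-coding genes only (edgeR adjusted p = 0.0528 and 0.0551). For this list the induced WT cells had nearly the same median, -0.69, and Q157R cells -0.46, while the histone medians were -0.56 and -0.52 and the replication medians -0.51 and -0.63.

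Since members of these lists fell together, the stretch before the start site is shown for 1 member of each group, from RefSeq on GRCh38.p14, 170 bases each, 5' to 3', ending at the base before the start. Capitals mark matches on either strand to the E2F-type words TTTGGCGC, TTTCCCGC, TTTGCCGC or TTTCGCGC, which may overlap each other, and to CCAAT. The stretches are chr2:135876444-135876613 (minus strand) for MCM6, chr17:40417897-40418066 (minus) for TOP2A and chr6:27867589-27867758 (minus) for H1-5.
MCM6: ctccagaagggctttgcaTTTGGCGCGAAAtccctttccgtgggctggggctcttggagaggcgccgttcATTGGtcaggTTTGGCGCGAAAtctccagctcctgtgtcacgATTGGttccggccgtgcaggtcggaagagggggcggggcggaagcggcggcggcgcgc
TOP2A: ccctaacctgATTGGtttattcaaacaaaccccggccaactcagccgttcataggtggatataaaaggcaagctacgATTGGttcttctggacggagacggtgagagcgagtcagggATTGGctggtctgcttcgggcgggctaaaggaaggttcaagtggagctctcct
H1-5: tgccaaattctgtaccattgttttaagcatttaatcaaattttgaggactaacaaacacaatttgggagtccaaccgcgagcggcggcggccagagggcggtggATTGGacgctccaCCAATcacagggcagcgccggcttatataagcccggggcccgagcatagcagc

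MCM6 holds E2F-type words at 2 places and CCAAT at 2, while TOP2A and H1-5 hold CCAAT only. In windows of 300 bases (250 before to 50 after the start) an E2F-type word was present in 18 of 34 replication genes (52.9%), 3 of 30 mitotic genes (10%) and 13 of 38 histone genes (34.2%), against 3.31% of 35116 promoters and 4.7% of 16006 promoters of protein-coding genes tested. The MCM6 window held 4 matches, more than the other replication genes named above. TK1 and POLD1 held none, TYMS held 1 and MCM2 held 2, both after the start. CCAAT was present in 55.9%, 76.7% and 81.6% of these lists, against 34.6% of all promoters and 35% of those of protein-coding genes tested. The cholesterol synthesis genes, described below, had CCAAT in 15 of 18 (83.3%), above each of these lists, and an E2F-type word in 1 (5.56%). Promoters were matched by symbol, and members without an entry were left out. For list members only the first promoter listed was taken, while the background shares count every promoter of a gene. A match is a description of letters, not a bound site.

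Growth regulators moved in both directions. MXD4, a repressor that competes with MYC for MAX, rose from 9.96 to 53.3 and 46.9 CPM and was the only one of 19 genes of the MYC, MAX and MXD network called (median -0.64; 1 higher and 8 lower with the block). MYC itself, named after its values were seen, stood at 441 CPM before and at 162 and 250 CPM after induction, with log2 fold change -1.10 ± 0.33 (edgeR adjusted p = 0.104; -1.36 and adjusted p = 0.00101 with the block). Of 19 JAK-STAT targets, a pathway known to drive HEL cells, CCND1 and CCND3 fell, the latter from 292 to 102 and 139 CPM, and the median was -0.62 (1 higher and 12 lower with the block). Neither was called with protein-coding genes only (edgeR adjusted p = 0.0539 and 0.0612). CCND1 overlaps LTO1 on the other strand.

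The ERK-linked list of 24 immediate early and feedback genes had 0 called and a median of -0.33, with 1 higher and 7 lower under the block. ETV4, a transcription factor that follows ERK activity, stood at 74.8 CPM before and at 8.59 and 19.2 CPM after induction (log2 fold change -2.43 ± 0.50, edgeR adjusted p = 0.055; adjusted p = 0.000527 with the block and 2.57e-13 to 0.259 over the alternatives). It overlaps DHX8 on the other strand. Its relative ETV5 stood at 89.9, 21.1 and 46.4 CPM and the ERK phosphatase DUSP6 at 18.4, 5.40 and 15.5 CPM. Replicate 1 was the lower of the induced libraries in all 3.

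Of 22 p53 targets only the death receptor gene FAS was called. It stood at 0.143 CPM before, from 5 counts, and at 4.14 and 3.91 CPM after induction, above the 0.0368 to 0.636 CPM of the 7 other libraries. FAS was not called with protein-coding genes only (edgeR adjusted p = 0.0517). It overlaps ACTA2 on the other strand, and the list's median was -0.09 (2 higher and 4 lower with the block). Of 8 lymphoid markers tested KLRD1, which encodes CD94 of natural killer cells, rose from 0.143 CPM, also 5 counts, to 11.2 and 7.03 CPM (median 0.34; summed level 23.5 CPM before and 35.4 and 48.2 after). ITGAM was the 1 of 7 monocyte and granulocyte markers called (median 0.82; summed level 68.3 CPM before and 112 and 152 after). No stromal or epithelial marker was called among 7 tested, with summed levels of 501, 623 and 512 CPM and PDGFRB lower with the block.

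Among blood lineage genes, GFI1B (chromosome 9, 132944000 to 132991687), a transcriptional repressor of erythroid and megakaryocyte development, fell from 299 to 77.6 and 121 CPM. Its log2 fold change was -1.59 ± 0.30 (edgeR adjusted p = 0.0456), and it was the only one of 25 erythroid markers called (median 0.10; 3 higher and 1 lower with the block). With protein-coding genes only it was not called (edgeR adjusted p = 0.0676). GFI1B overlaps TSC1 on the other strand. Of 26 megakaryocyte and platelet markers 0 were called (median -0.46; 2 higher and 10 lower with the block), with RAB27B at 607, 230 and 380 CPM, PPBP at 43.7, 19.2 and 35.9 CPM and PLEK at 906, 521 and 418 CPM. Of 20 globin and heme synthesis genes 0 were called (median -0.39), with the fetal globin HBG2 at 565, 298 and 194 CPM, HBB at 15.0, 2.84 and 8.58 CPM, and ALAD, of heme synthesis, at 16.6, 40.7 and 37.7 CPM.

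RNA-processing genes were lower in part. HNRNPAB, an RNA-binding protein of nuclear RNA packaging, fell from 413 to 121 and 139 CPM and was the only one of 27 hnRNP genes called (median -0.66; 16 lower with the block). It overlaps PHYKPL on the other strand, and it was not called with protein-coding genes only (edgeR adjusted p = 0.0551). Of 26 genes for the U2 snRNP and for recognising 3' splice sites 0 were called and 21 were negative (median -0.68). With the block 10 were called lower, led by SNRPA1, at 113, 60.9 and 54.9 CPM, and PUF60, at 165, 89.1 and 79.0 CPM. Of 19 SR proteins and their kinases 0 were called (median -0.20; 1 higher and 3 lower with the block), with SRPK1 at 281, 129 and 133 CPM, SRSF9 at 188, 97.4 and 94.2 CPM, and CLK4 at 24.9, 50.5 and 40.2 CPM.

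Of 17 nonsense-mediated decay (NMD) factors 0 were called (median -0.17), and EIF4A3, of the exon junction complex, stood at 91.2, 42.1 and 38.6 CPM. Of 14 transcripts known as NMD-sensitive 0 were called (median 0.45; 2 higher and 2 lower with the block), with SNHG12 at 41.0, 75.2 and 56.1 CPM, EPB41L4A-AS1 at 37.8, 73.3 and 79.6 CPM and GADD45A at 101, 64.8 and 70.5 CPM. STRAP, an RNA-binding assembly factor, fell from 200 to 87.6 and 78.9 CPM, the only one of 16 genes recalled as alternatively spliced with mutant U2AF1 (median -0.29). Of 12 nuclear-retained long noncoding RNAs, FTX rose from 18.2 to 64.7 and 70.1 CPM and was the only one called (median 0.52, beside 0.64 for all lincRNA entries). MALAT1, chosen after its values were seen, was at 2650, 5600 and 4270 CPM (edgeR adjusted p = 0.12). Of 24 stress granule proteins 0 were called (median -0.27; 5 lower with the block), with YBX1 at 1640, 908 and 735 CPM, TAF15 at 152, 86.6 and 80.9 CPM and G3BP2 at 456, 251 and 265 CPM.

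Metabolic lists were mostly negative, beside a median of -0.13 over all protein-coding genes, whose share of negative values is not given here. Protein-coding scaling put that median at 0.03. Negative values were then held by 22 of 24 cholesterol synthesis, 28 of 30 glycolysis and hypoxia and 68 of 75 mitochondrial ribosomal protein genes. Of 24 cholesterol synthesis genes 22 were negative, with a median of -1.11, beside 0.26 in WT and -0.09 in Q157R cells. FDPS, farnesyl diphosphate synthase, fell from 187 to 63.1 and 67.6 CPM and was the only one called (9 lower with the block). With protein-coding genes only it was not called (edgeR adjusted p = 0.0555). Of 30 glycolysis and hypoxia genes 28 were negative and 0 called (median -0.87). With the block 4 of the 30 were called lower, a smaller share than the 16.4% of protein-coding genes, with PFKL at 307, 119 and 180 CPM and HK1 at 374, 218 and 210 CPM. Of 75 mitochondrial ribosomal protein genes 71 were negative and 2 fell, MRPL39 from 36.2 to 14 and 13.6 CPM and MRPL4 from 153 to 64.3 and 68.2 CPM (median -0.58; 18 lower with the block). MRPL4 was not called with protein-coding genes only (edgeR adjusted p = 0.061).

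Of 43 nuclear oxidative phosphorylation genes 40 were negative and 0 called (median -0.57; 1 higher and 16 lower with the block), with CYCS at 222, 98.7 and 86.1 CPM. Mitochondrially encoded mRNAs had a median of 0.05 over 13 genes, and cytosolic ribosomal proteins one of -0.08 over 79, with 0 called in either list, also with the block. Their signs were not stable: the ribosomal median was 0.08 with protein-coding scaling and the mitochondrial one -0.20 without induced replicate 1. MT-CO1 stood at 6500, 6420 and 5930 CPM, MT-ND4 at 3550, 3980 and 3370 CPM, RPS6 at 1780, 1610 and 1760 CPM and RPL4 at 1630, 1430 and 1540 CPM.

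Among protein folding genes, CCT5, a subunit of the TRiC chaperonin, fell from 393 to 176 and 161 CPM, the only one of 26 heat shock and cytosolic chaperone genes called (median -0.60; 1 higher and 5 lower with the block). CCT5 was not called with protein-coding genes only (edgeR adjusted p = 0.061). Of 22 genes of the endoplasmic reticulum unfolded protein response 0 were called (median -0.78; 7 lower with the block), with EDEM1 at 100, 44.3 and 54.5 CPM, PDIA4 at 235, 108 and 78.9 CPM and XBP1 at 152, 78.9 and 129 CPM. Over 33 interferon-stimulated genes the median was 0.24, with 17 positive and 16 negative values. Of these 1 was called lower and 0 higher, with 2 higher and 6 lower under the block and 0 called with protein-coding genes only. Of 20 inflammatory and NF-kB targets 0 were called (median -0.28), with 16 negative and 4 positive values. With the block 2 were called higher and 1 lower. IL1B stood at 154, 48.6 and 93.7 CPM, ICAM1 at 4.24, 9.5 and 14.8 CPM and BIRC3 at 1.66, 3.47 and 5.13 CPM.

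**Figure D4:**
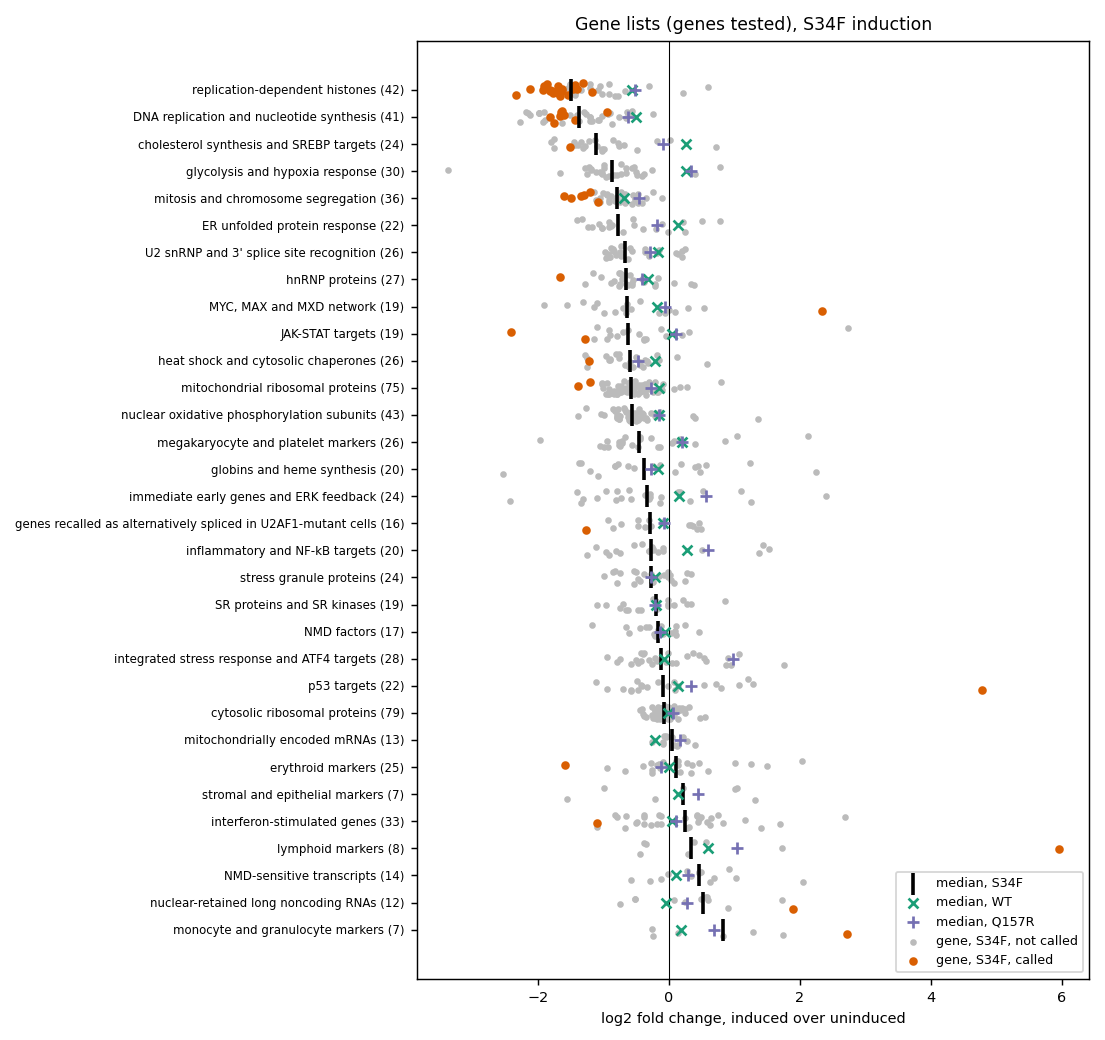
Log2 fold change of each list member on S34F induction (points, orange where called) with the list's median in the S34F, WT and Q157R lines, 1 row per list with the number of genes tested. Histone, replication and cholesterol genes have the lowest S34F medians (-1.49, -1.37 and -1.11), and the cholesterol medians of the other lines are 0.26 and -0.09.

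Induced replicates 1 and 2 parted in the integrated stress response and ATF4 list. Its 28 genes had 0 called and a median of -0.12, made of -0.63 in the replicate 1 pair and 0.22 for induced replicate 2 over the uninduced library. PSAT1, of serine synthesis, stood at 73.9 CPM uninduced, 19.8 in induced replicate 1 and 92.7 in replicate 2. PHGDH, of the same pathway, stood at 124, 58.5 and 183 CPM and XPOT, a tRNA exporter, at 364, 210 and 277 CPM, with the uninduced library first. The hypoxia-responsive VEGFA stood at 61.6 and 178 CPM in induced replicates 1 and 2, on either side of the uninduced library. Replicate 2 libraries were higher in the other lines too: PSAT1 was at 72.9 and 414 CPM in uninduced WT replicates 1 and 2 and at 80.7 and 361 CPM after induction. The block removes a replicate difference taken as equal in all lines, which the S34F line alone could not check. With the block PSAT1 was at -1.85 (edgeR adjusted p = 0.000759; up to 0.927 over the alternatives), PHGDH at -1.26 and VEGFA at -1.38. Under the same assumption 12 of the 28 genes were called lower, against 16.4% of protein-coding genes. An uninduced S34F library of replicate 2 was not analysed here.

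The change in the S34F line was then set against that in the other lines, by the difference of the inductions. The S34F and WT inductions share no library. For the 150 genes that rose in S34F cells the median log2 fold change was 0.67 in WT and 0.83 in Q157R cells, and for the 268 that fell it was -0.45 and -0.50. In WT and Q157R cells 0 of 21300 genes were called by edgeR (1363 and 1888 at an unadjusted p under 0.05; 33 and 74 by DESeq2), and 89 (0.418%; 0.254% higher) and 56 (0.263%; 0.146% higher) were called with the block.

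The differences themselves had 0 genes called, with 1745 (S34F minus WT) and 1320 (S34F minus Q157R) at an unadjusted p under 0.05 and 27 called by DESeq2 in each. With the block 32 genes were called higher and 118 lower in S34F than in WT induction, 0.15% and 0.554% of those tested. Against Q157R induction they were 20 higher and 60 lower, 0.0939% and 0.282% (0.376% in all). The 2 sets had 54 genes in common, 36% of the 150 and 67.5% of the 80, and both use the same S34F libraries. Values of these differences below are from the fit with the block. Without it, edgeR's adjusted p against WT was 0.589 for AVIL, TECTA, C20orf204, UBASH3B, FAH and ACTN1, and it reached 0.936 over the alternatives. Against Q157R it was 0.783 for AVIL, ZNF549, LRRC7, UBASH3B, TIMP3 and KALRN, and reached 1.

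AVIL differed from the WT induction by 3.60 ± 0.47 in log2 fold change (edgeR adjusted p = 0.0179) and from the Q157R induction by 3.89 ± 0.50 (adjusted p = 0.0179). TECTA differed from WT by 3.70 ± 0.59 (adjusted p = 0.0327) and from Q157R by 3.38 ± 0.64 (adjusted p = 0.0591). UBASH3B differed by -2.39 ± 0.27 from WT (adjusted p = 0.012) and by -2.26 ± 0.29 from Q157R (adjusted p = 0.0179). C20orf204 differed from WT by 1.81, and 8 of the 42 histone genes were called lower in the S34F than in the WT induction. Against the Q157R induction C20orf204 differed by 1.59, which was not called, and 1 of the 42 histone genes was called lower.

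FAH, the last enzyme of tyrosine breakdown, stood at 233 CPM before and at 70.2 and 75.3 CPM after S34F induction, and at 192 to 275 CPM in the 7 other libraries. ACTN1, an alpha-actinin that crosslinks actin, stood at 342, 88.4 and 116 CPM, beside 216 to 308 CPM in the others. Their differences from the WT induction were -1.79 and -1.56. LRRC7 rose from 108 to 278 and 270 CPM and ZNF549, a zinc finger gene, from 31.3 to 70.7 and 63.9 CPM, and both differed from the Q157R induction, by 1.27 and 1.42.

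TIMP3, an inhibitor of matrix metalloproteinases, had opposite signs in the lines. It stood at 1280 CPM before and at 437 and 512 CPM after S34F induction. In the WT line it was at 1180 and 1380 CPM before and at 1670 and 2690 CPM after, and in the Q157R line at 634 before and at 1620 and 2980 CPM after. The S34F induction differed from that of Q157R by -3.24 ± 0.32 (edgeR adjusted p = 0.00638) and from that of WT by -2.41 ± 0.28 (adjusted p = 0.012). TIMP3 lies within SYN3, which runs on the other strand. KALRN, a guanine nucleotide exchange factor, was at 70.4, 36.4 and 44.6 CPM in S34F cells and differed from Q157R by -2.10. Its log2 fold change was -0.95 in S34F, 0.05 in WT and 1.14 in Q157R cells, so this difference includes a rise in the Q157R line.

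**Figure D5:**
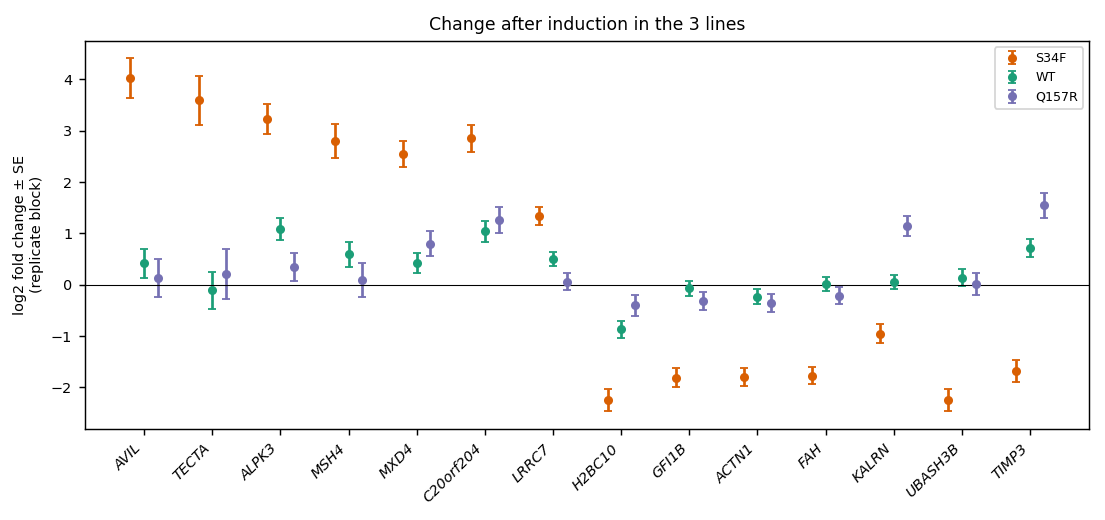
Log2 fold change on induction (points) ± SE (bars) from the fit with the replicate block, in the S34F, WT and Q157R lines, for 14 genes whose change differed between lines. AVIL is at 4.02 in S34F cells and TIMP3 at -1.68, while TIMP3 lies at 0.72 in WT and 1.55 in Q157R cells.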

How the data were processed

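RNA from HEL cells was depleted of rRNA and sequenced as paired ends, per the labels' protocols. The deposited table holds whole-number read counts per gene for 10 RNA-seq libraries, made by the authors. The submitters' processing notes name cutadapt, STAR 2.5.3a and 2.7.0f, HISAT2, HTSeq, SAMtools, edgeR and DESeq2 and the build GRCh38.p10, without saying which served this table. The annotation release and the strand setting are not given in the sources used here. Summary entries that name no gene were left out of totals and tests, and the share of reads in no feature is given in the report. Reads of overlapping genes on opposite strands cannot be told apart. Of 58347 entries 58084 matched GENCODE 29, used for types and names.

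Genes were filtered with edgeR's filterByExpr (minimum count 10), scaled by TMM and tested with edgeR 4.0.16 (robust quasi-likelihood), 6 groups with 1 mean each over 10 libraries, 4 residual degrees of freedom, and Benjamini-Hochberg adjustment. SE is the absolute log2 fold change over the root of F. CPM uses the scaled library sizes. The procedure was tested on simulated data.

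Genes were named by a rule: U2AF1 and U2AF2; the 10 largest called rises and falls at a mean log2 CPM of at least 3 with both induced libraries on 1 side; from each list up to 4 called members, otherwise up to 3 called with the block, otherwise the 2 most abundant; and for each difference between lines the 3 of lowest p in each direction. Others are said to be chosen later, and some genes that the rule names are not reported here. The genes compared and the 32 lists were chosen with earlier results of these data known.

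Replicate numbers pair the libraries: deviations from group means correlated at 0.211 to 0.652 in 6 of 6 group pairs. The numbers come from the labels. The alternatives were the replicate block, DESeq2 1.42.0, other scalings and filters, only the compared lines, and each replicate left out. Restricting to protein-coding genes and to replicate 1 libraries were added after seeing the data. With 1 uninduced S34F library its own spread was not measured.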

Additional observations from a re-analysis of the deposited data

Results flagged for a closer look

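Reads outside annotated features, which enter no gene comparison, made up 33.7% and 33.5% of the reads in induced S34F replicates 1 and 2, against 20.3% in the uninduced S34F library. In the WT and Q157R lines the induced libraries stood at 22.7% to 27.0% and the uninduced ones at 19.0% to 20.6%. The origin of these reads was not tested.

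For the following genes the change on induction differed between lines when the replicate number was a block in edgeR (adjusted p under 0.05). The same edgeR fit without the block called none of these differences. DESeq2 and edgeR with no filter on low counts, both without the block, called 27 and 306 genes for S34F minus WT. For S34F minus Q157R they called 27 and 228 genes. Values are differences of log2 fold changes. Higher in S34F than in WT induction were TECTA at 3.7, AVIL at 3.6, MSH4 at 2.21, ALPK3 at 2.13, MXD4 at 2.13, PTGDR2 at 1.91, C20orf204 at 1.81 and ITGAM at 1.49. Lower in S34F than in WT induction were H1-5 at -1.16, EDEM1 at -1.19, H2BC10 at -1.38, NCAPG2 at -1.4, RAB27B at -1.43, H4C9 at -1.44, VEGFA at -1.47, ETV5 at -1.55, ACTN1 at -1.56, GFI1B at -1.74, DUSP6 at -1.76, FAH at -1.79, PSAT1 at -1.81, HBB at -1.84, MYEOV at -2.13, UBASH3B at -2.39, TIMP3 at -2.41 and ETV4 at -2.48.

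Against the Q157R induction, higher were AVIL at 3.89, ALPK3 at 2.88, MSH4 at 2.7, MXD4 at 1.74, ZNF549 at 1.42 and LRRC7 at 1.27. Lower were TOP2A at -1.26, ACTN1 at -1.44, GFI1B at -1.49, FAH at -1.56, EDEM1 at -1.69, ETV5 at -1.79, RAB27B at -1.8, DUSP6 at -1.81, H2BC10 at -1.85, VEGFA at -2.01, KALRN at -2.1, PSAT1 at -2.25, UBASH3B at -2.26, ETV4 at -2.32 and TIMP3 at -3.24. Both sets use the same S34F libraries, so genes in both are not independent results.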

How the results depend on the processing

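The number of genes called in the S34F induction did not hold: leaving out 1 replicate gave 0 to 725 genes, 0 of them without induced S34F replicate 1 or 2 or uninduced WT replicate 1 or 2, and 725 (222 higher, 503 lower) without induced Q157R replicate 2. It was 4099 with the replicate block, 1851 by DESeq2, 2992 with no filter on low counts, 4357 with only the S34F line in the fit and 149 with protein-coding genes only, of which 142 were among the 418. With the block, DESeq2 and no filter, the number was 89, 33 and 130 for the WT induction, 56, 74 and 569 for Q157R (8 with only that line), 150, 27 and 306 for S34F minus WT, and 80, 27 and 228 for S34F minus Q157R. In these 4 comparisons leaving out any replicate gave 0. The replicate block took no gene off the 418. U2AF2 was past the threshold with the block (-0.76), with no filter (-0.99) and with only the S34F line (-0.94), and leaving out a replicate gave -1.16 to -0.73. Without induced S34F replicate 1 the sign turned for PSAT1 (0.33, against -1.9 without replicate 2), PHGDH (0.56, against -1.08), VEGFA (0.19, against -1.34) and MT-ND4 (-0.07, against 0.17). With protein-coding genes only it turned for PHGDH (0.12), MT-CO1 (0.08), RPS6 (0.08) and RPL4 (0.02), and MT-ND4 was at 0.00 with no filter. None of these was called without the block, and the cause was not tested. Over the named genes' values, the alternatives that left out no replicate gave 538 on the same side of the threshold, 136 newly past it and 13 no longer past it. With a replicate left out the balance was the other way, and more values were no longer past the threshold than newly past it. Medians of the stress response, p53, ribosomal, mitochondrial mRNA, erythroid, lymphoid and stromal lists changed sign under at least 1 alternative. Genes with few counts, such as FAS and KLRD1 with 5 in the uninduced library, are limited by depth.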

Other observations

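Neighbouring genes changed together at 2 places, chosen after their values were seen. MYEOV and CCND1, on chromosome 11, both fell. Of the 8 genes tested up to 500000 bases either side, these included, 2 fell, 0 rose and 4 had positive values, among them LTO1 at 0.32 and TPCN2 at 0.03, while MRPL21 was at -0.80 and was not called. MGAM and MGAM2, on chromosome 7, both rose. Of the 22 genes tested around them 2 rose, 0 fell and 13 had positive values. TAS2R4 was at 2.02, OR9A4 at 3.23 and SSBP1 at -0.73, none of them called. OR9A4 lies within MGAM on the same strand, so reads of one may be counted for the other.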
